A study of Mus musculus with 4 samples.

Results

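Genes of the Wnt signalling pathway were examined in cardiac progenitors derived from mouse embryonic stem cells with and without Isl1, a LIM-homeodomain factor of the second heart field. The members were the symbols of the deposited transcript table that name a Wnt ligand, a Frizzled (Fzd) receptor, a Dkk, Sfrp or Rspo protein, together with Frzb, Wif1, Lrp5, Lrp6, Ror1, Ror2, Lgr4, Lgr5, Axin1, Axin2, Ctnnb1, Lef1, Tcf7, Tcf7l1 and Tcf7l2. This gave 56 genes of the 20701 in the table, namely 19 ligands, 10 Fzd receptors, 4 co-receptors, 6 R-spondins and Lgr receptors, 10 secreted antagonists and 7 cytoplasmic and nuclear genes. Control and Isl1_KO cells both came from the E14 Tg(Nkx2-5-EmGFP) embryonic stem cell line, whose green fluorescent reporter follows the cardiac gene Nkx2-5. The Isl1_KO cells were Isl1-/- clones made with CRISPR/Cas9, and each group was represented by 2 libraries from 2 different clones. Reporter-positive cells were sorted on day 5 of differentiation in both groups, and the labels give no other difference between them. The series' design text speaks of a knockdown, while the sample titles and the study's methods give a knockout, which was followed here.

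Wnt ligands are secreted lipid-modified proteins that bind Fzd receptors together with a co-receptor. With Lrp5 or Lrp6 they keep β-catenin (Ctnnb1) from being degraded, so that it enters the nucleus and switches on target genes with Tcf7, Lef1, Tcf7l1 or Tcf7l2. With Ror1 or Ror2, ligands such as Wnt5a and Wnt11 act on cell shape and movement instead. Sfrp proteins and Frzb bind the ligands outside the cell, while Dkk1 and Dkk2 block Lrp5 and Lrp6. In the forming heart the pathway is known for opposite roles over time, since canonical signals help to form mesoderm and later hold back cardiomyocyte differentiation.

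The libraries held 8821536 and 9147419 counts in control and 13186103 and 11388326 in Isl1_KO, with 1 transcript entry kept per gene, and the members took 0.326% of the counts. Isl1 had 35.1 and 35.7 CPM (counts scaled by library size) in control against 1.31 and 2.08 CPM in Isl1_KO, so the levels followed the labels. It changed by -4.39 on the log2 scale (SE 0.213, adjusted p 0.00276 in the quasi-likelihood test of edgeR). All 7 cardiomyocyte markers checked were lower in Isl1_KO past the same threshold, and their summed level was 1509 and 1595 CPM in control against 35.6 and 33.3 CPM in Isl1_KO. Both Isl1_KO libraries were below control for 8 of 9 cardiac progenitor markers, of which 5 passed that threshold, Nkx2-5 among them with a log2 fold change of -2.16. Over all 12715 genes tested, both were below control for 3683, and 1.94% passed that threshold with a lower level. Since the libraries are bulk samples, fewer cells of a type and less RNA per cell cannot be told apart. The second Isl1_KO library stood apart in 5 early mesoderm markers, which summed to 158 CPM there and to between 31.0 and 32.3 CPM in the other libraries. Of those 5, T, Eomes, Mixl1 and Mesp1 were higher in that library and Tbx6 was near 1 CPM in all. In the same library the 4 smooth muscle markers summed to 679 CPM, against 2082 CPM in the first Isl1_KO library and 2435 and 2438 CPM in control. The 4 fibroblast markers summed to 441 CPM there, against 928 CPM in the first Isl1_KO library and 1458 and 1447 CPM in control. Of those 4, Thy1 was higher in the second Isl1_KO library than in the first, at 3.82 against 2.31 CPM. Endothelial markers summed to 161 and 164 CPM in control and to 147 and 94.4 CPM in Isl1_KO. Blood markers summed to 503 and 515 CPM in control and to 379 and 265 CPM in Isl1_KO. Against these lower sums, Pecam1 of the endothelial and Gata1, Runx1 and Tal1 of the blood markers were above control in both Isl1_KO libraries. Endoderm and neural markers each summed to at most 138 CPM. Pluripotency markers summed to 30.1 and 30.6 CPM in control, to 24.7 CPM in the first Isl1_KO library and to 48.2 CPM in the second. Whether cells with these markers had a part in the results on Wnt genes was not tested, and the values are given beside each result that they move with.

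The members past the adjusted threshold of edgeR were Sfrp5, Frzb, Sfrp1, Wnt2, Fzd10, Fzd1 and Fzd3, and the 250 bases before the transcription start are shown for the 5 of them that RefSeq's promoter table on GRCm38.p6 holds, since the results turn on these genes: Fzd10 was higher in Isl1_KO and the other 4 were lower. The table matched 38 of the 56 members. Each line runs 5′ to 3′ on the strand of the gene. Capitals mark AGATAA, a sequence read by GATA factors such as Gata4, on either strand (TTATCT is the same motif on the other strand). Other sequences that hold GATA were not searched, and the Wnt2 and Frzb lines hold agatag in lower case. The Wnt2 line also holds ttatcg and, near its end, ttatca, which read cgataa and tgataa on the other strand.
Sfrp5 promoter (chr19:42202253-42202502, minus strand): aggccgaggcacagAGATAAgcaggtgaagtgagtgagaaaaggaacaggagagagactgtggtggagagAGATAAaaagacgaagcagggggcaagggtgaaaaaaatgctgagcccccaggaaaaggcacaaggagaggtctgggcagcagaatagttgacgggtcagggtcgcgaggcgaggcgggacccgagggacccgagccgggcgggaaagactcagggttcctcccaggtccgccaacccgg
Frzb promoter (chr2:80447397-80447646, minus strand): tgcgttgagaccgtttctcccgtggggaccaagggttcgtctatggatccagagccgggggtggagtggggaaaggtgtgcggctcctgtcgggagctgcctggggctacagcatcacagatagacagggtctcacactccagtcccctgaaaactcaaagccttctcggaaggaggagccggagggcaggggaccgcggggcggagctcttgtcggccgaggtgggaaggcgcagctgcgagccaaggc
Wnt2 promoter (chr6:18030446-18030695, minus strand): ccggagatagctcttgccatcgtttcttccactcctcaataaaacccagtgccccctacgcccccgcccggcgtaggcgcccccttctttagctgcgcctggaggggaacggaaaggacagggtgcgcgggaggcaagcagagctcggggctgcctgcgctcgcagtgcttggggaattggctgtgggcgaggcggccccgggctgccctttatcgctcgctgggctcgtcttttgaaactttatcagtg
Fzd10 promoter (chr5:128600856-128601105, plus strand): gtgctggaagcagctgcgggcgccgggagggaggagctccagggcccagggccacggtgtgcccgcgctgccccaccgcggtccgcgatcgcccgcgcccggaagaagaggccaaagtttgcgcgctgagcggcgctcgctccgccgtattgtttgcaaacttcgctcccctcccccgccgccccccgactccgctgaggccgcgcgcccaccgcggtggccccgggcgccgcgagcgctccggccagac
Fzd1 promoter (chr5:4758217-4758466, minus strand): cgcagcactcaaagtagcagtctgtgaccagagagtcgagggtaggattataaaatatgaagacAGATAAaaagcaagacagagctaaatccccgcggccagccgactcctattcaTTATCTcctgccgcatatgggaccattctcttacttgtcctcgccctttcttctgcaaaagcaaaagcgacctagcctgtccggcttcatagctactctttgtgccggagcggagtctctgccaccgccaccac

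The search covered 3 motifs on both strands, none of which contains another. AGATAA was found in the Sfrp5 promoter at 236 and 180 bases before the start, and in the Fzd1 promoter at 186 bases before the start and, on the other strand, at 134. It was also in the promoters of Tcf7l2 and Wnt8b, which makes 4 of 38 members, and 9.99% of all 32851 promoters of this length held it. The 38 members had 47 promoters, so a count per member and a share per promoter, here and for the motifs below, differ in unit. CTTTGAT or CTTTGAA, the motif of the Tcf and Lef factors through which β-catenin acts, was found in Dkk1, Wnt11 and Wnt5b and in 7.48% of all promoters, but in none of the 5 sequences printed. CTAATGG or CTAATTG, sequences of the homeodomain kind bound by Isl1, was in 0 of the 38 members and in 3.46% of all promoters. The printed promoters differed in base composition, from 51.2% G and C in Fzd1 and 59.6% in Sfrp5 to 63.6% in Wnt2, 64.4% in Frzb and 76.4% in Fzd10. A match is a description of these letters and not a bound site.

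To ask which of these genes differed when Isl1 was lost, Isl1_KO was compared with control across all genes of the table. Of the 43 members with enough counts to be tested, 7 passed an adjusted p of 0.05 in edgeR, 6 of them lower in Isl1_KO and 1 higher. Over the 12715 genes tested 2.45% passed, 1.94% lower and 0.511% higher. The median log2 fold change was -0.143 over the tested members and -0.003 over all tested genes. With the criteria of the study (a change over 1.5-fold, or 0.58 on the log2 scale, and an unadjusted p under 0.05 in DESeq2), 12 members were lower and 5 higher. Of all 16855 genes with a count, 5.89% met these criteria, 4.57% lower and 1.32% higher. In 33 of the 43 tested members both Isl1_KO libraries lay outside the range of the control pair, which was also the case for 58.1% of all genes. The calls depended on single libraries: 1 member passed without control replicate 1, 2 passed without control replicate 2, 31 without Isl1_KO replicate 1 and 24 without Isl1_KO replicate 2. A group of 1 library was taken to vary like the other pair, and DESeq2 called 12 members by its adjusted p.

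**Figure D1:**
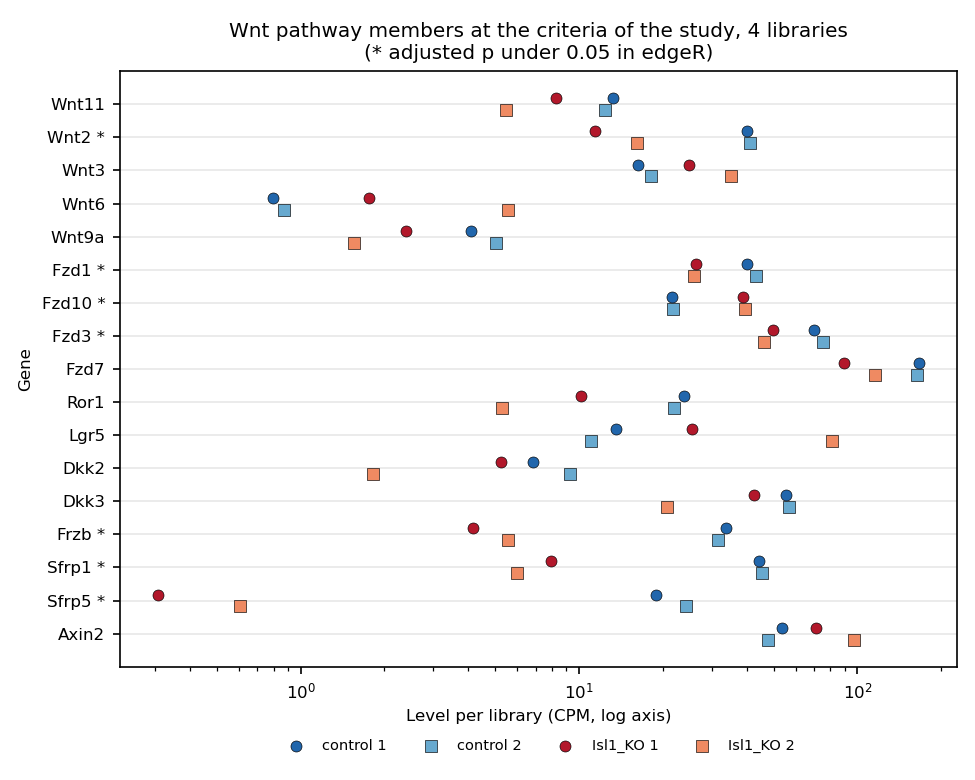
Level in each library (CPM, log axis) of the 17 members at the criteria of the study, 1 gene per row in order of role, with circles and squares for replicates 1 and 2 of control (blue) and Isl1_KO (red and orange) and an asterisk for an edgeR adjusted p under 0.05. Sfrp5, Sfrp1 and Frzb show the widest gaps between the groups, with Sfrp5 at 18.8 and 24.2 CPM in control and below 1 CPM in both Isl1_KO libraries, and Lgr5, Wnt6, Dkk2 and Dkk3 show wide gaps between the Isl1_KO libraries.

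The secreted antagonists held the strongest decreases. Of 10 antagonists 7 were tested and 3 fell, with 0 higher, against 1.94% lower and 0.511% higher over all genes tested. The median log2 fold change of the tested antagonists was -1.17. Sfrp5 (chromosome 19, 42272461 to 42276742, minus strand, in the NCBIM37 build) encodes a secreted Frizzled-related protein that is known as a marker of the early heart field. Control held 166 and 221 reads of it and Isl1_KO 4 and 7, or 18.8 and 24.2 CPM against 0.307 and 0.607 CPM. Both Isl1_KO libraries were just above the floor of 3 counts, which was 0.228 and 0.263 CPM, and far below control. The log2 fold change was -5.54 (standard error 0.322, 95% interval -6.36 to -4.73), a 46.7-fold decrease with an edgeR adjusted p of 0.00368.

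Frzb (chromosome 2, 80252127 to 80287782, minus strand) encodes another antagonist that traps Wnt proteins through a Frizzled-like domain. Its level was 33.6 and 31.5 CPM in control and 4.15 and 5.55 CPM in Isl1_KO. The groups did not overlap, and the decrease was 6.73-fold, with a log2 fold change of -2.75 (standard error 0.175, edgeR adjusted p 0.00491). Sfrp1 (chromosome 8, 24521974 to 24560104, plus strand), a close relative of Sfrp5, was at 44.3 and 45.5 CPM in control and at 7.92 and 5.99 CPM in Isl1_KO. This was a 6.42-fold decrease, with a log2 fold change of -2.68 (standard error 0.158, edgeR adjusted p 0.00374). These 3 genes were low in both Isl1_KO libraries, and they were the members that also passed a test against a 1.5-fold change. Their decrease went along with that of the cardiomyocyte and cardiac progenitor markers given above, whose part in it was not tested.

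The other antagonists did not pass the adjusted threshold. Dkk3, a distant member of the Dickkopf family, was at 55.5 and 56.6 CPM in control and at 42.4 and 20.7 CPM in Isl1_KO (log2 fold change -0.82, SE 0.323, edgeR adjusted p 0.214). Dkk2 was at 6.81 and 9.30 CPM in control against 5.23 and 1.82 CPM (log2 fold change -1.17, edgeR adjusted p 0.229). For both genes the low value belonged to the second Isl1_KO library, in which the summed fibroblast and smooth muscle markers were also lowest. Without that library the log2 fold change was -0.40 for Dkk3 and -0.63 for Dkk2. Dkk1, the Lrp5 and Lrp6 blocker that is itself a target of the pathway, was at 18.8 and 17.0 CPM in control and at 19.3 and 26.4 CPM in Isl1_KO. Its log2 fold change was 0.35 with a 95% interval of -0.12 to 0.82. Sfrp2 had a log2 fold change of -0.36 (95% interval -1.06 to 0.36), while Dkk4, Sfrp4 and Wif1 had too few counts to be tested.

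Per length of transcript, in RPKM, the make-up of the antagonist transcripts differed between the groups. The summed level of all antagonists was 36.0 and 37.6 RPKM in control and 17.4 and 14.7 RPKM in Isl1_KO. Sfrp1, Sfrp5 and Frzb together made up 49.6% and 50.9% of it in control but 10.9% and 14.4% in Isl1_KO. The share of Dkk1 was 13.2% and 11.4% in control and 27.9% and 47.2% in Isl1_KO, although its own level had not passed the test. In both Isl1_KO libraries the Dkk genes and Sfrp2 thus made up most of the remaining antagonist transcripts.

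**Figure D2:**
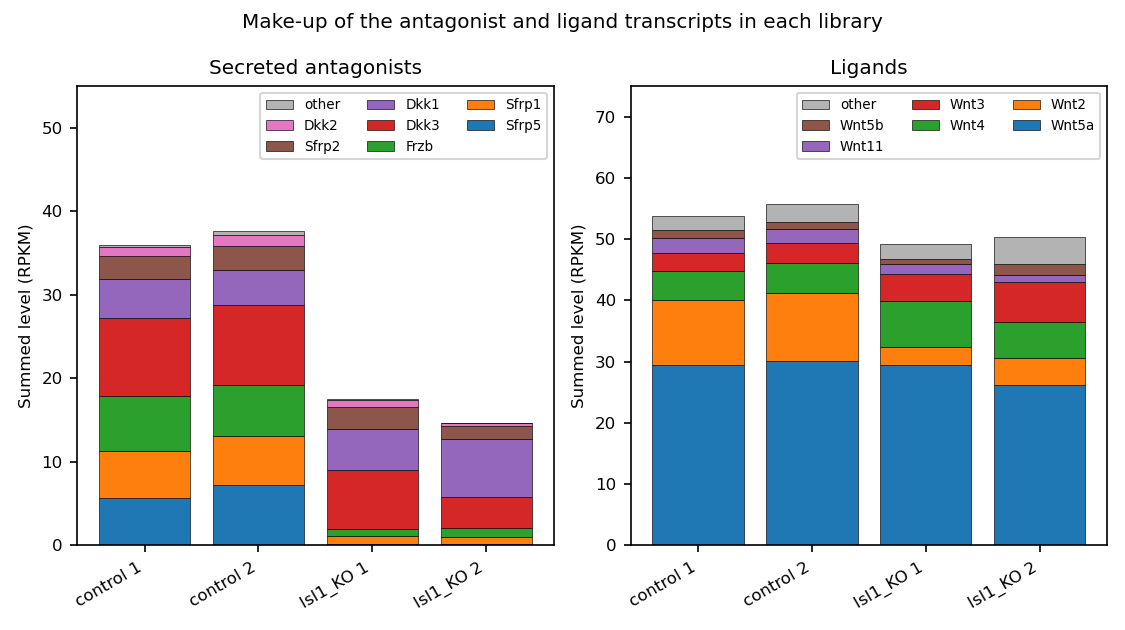
Stacked bars of the summed level (RPKM) of the secreted antagonists (left) and of the Wnt ligands (right) in each of the 4 libraries, 1 colour per gene. The antagonist bars fall from 36.0 and 37.6 RPKM in control to 17.4 and 14.7 RPKM in Isl1_KO, mostly through Sfrp5, Sfrp1 and Frzb, whereas the ligand bars stay between 49.2 and 55.7 RPKM with Wnt5a as the largest part of each.

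Among the ligands Wnt2 fell and 11 other tested ligands did not pass the threshold, while 1.94% of all genes tested passed it lower. Wnt2 (chromosome 6, 17938940 to 17980585, minus strand), a ligand known from the cardiac progenitors at the venous pole of the heart, was at 40.0 and 41.2 CPM in control and at 11.4 and 16.2 CPM in Isl1_KO. Both Isl1_KO libraries were well below control, a 2.94-fold decrease with a log2 fold change of -1.56 (standard error 0.182, edgeR adjusted p 0.0270). Wnt5a, the ligand with the highest level per length (mean 28.7 RPKM), was at 227 and 232 CPM in control and at 227 and 194 CPM in Isl1_KO. Its log2 fold change was -0.12, and the 95% interval of -0.36 to 0.12 held no change as large as 1.5-fold. Wnt5a made up 54.6% and 54.0% of the ligand transcripts in control and 59.7% and 51.9% in Isl1_KO, and Wnt2 19.9% and 19.8% against 6.22% and 8.94%. The total over the 19 ligands was 53.8 and 55.7 RPKM in control and 49.2 and 50.4 RPKM in Isl1_KO.

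A further 4 ligands met the criteria of the study without passing the adjusted threshold. Wnt11, a noncanonical ligand of the outflow tract, was at 13.3 and 12.4 CPM in control and at 8.30 and 5.47 CPM in Isl1_KO (log2 fold change -0.89, SE 0.237, edgeR adjusted p 0.120). Wnt9a, at 4.09 and 5.03 against 2.38 and 1.56 CPM, also lay below control in both libraries (log2 fold change -1.20, edgeR adjusted p 0.114). Wnt3, a canonical ligand needed for the primitive streak, was at 16.2 and 18.2 CPM in control and at 24.8 and 35.1 CPM in Isl1_KO (log2 fold change 0.80, SE 0.199, edgeR adjusted p 0.109). Wnt6 was low throughout, at 0.795 and 0.875 CPM against 1.77 and 5.55 CPM (log2 fold change 2.10, SE 0.698, edgeR adjusted p 0.171). For Wnt3 and Wnt6 the higher of the Isl1_KO values came from the library with the high early mesoderm markers, and without it the log2 fold changes were 0.53 and 1.07. Wnt4 was at 32.2 and 33.7 CPM in control and at 50.4 and 37.8 CPM in Isl1_KO, with a log2 fold change of 0.42 (standard error 0.160, edgeR adjusted p 0.205). The remaining tested ligands, Wnt2b, Wnt5b, Wnt8a, Wnt9b and Wnt10b, had mean levels under 6 CPM in each group and log2 fold changes between -0.59 and 0.82. Wnt1, Wnt3a, Wnt7a, Wnt7b, Wnt8b, Wnt10a and Wnt16 had at most 10 counts in any library, and a difference could not be detected at this depth.

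The Fzd receptors shifted in both directions. Of 9 tested, 3 passed the threshold, 2 lower and 1 higher, against 1.94% lower and 0.511% higher over all genes tested. The median log2 fold change of the 9 was -0.48. Fzd10 (chromosome 5, 129106719 to 129109968, plus strand) was the single member higher in Isl1_KO past the edgeR threshold, and it rose from 21.6 and 21.7 CPM in control to 38.7 and 39.5 CPM in Isl1_KO. The replicates lay within 1 CPM of each other in both groups, and the increase was 1.81-fold, with a log2 fold change of 0.85 (standard error 0.0977, edgeR adjusted p 0.0246). Fzd1 (chromosome 5, 4753842 to 4758216, minus strand) fell from 40.2 and 43.3 CPM to 26.3 and 25.9 CPM, a log2 fold change of -0.68 (standard error 0.0998, edgeR adjusted p 0.0432). Fzd3 (chromosome 14, 65819863 to 65881300, minus strand), a receptor known for planar polarity and axon guidance, fell from 69.7 and 75.4 CPM to 49.7 and 46.1 CPM. Its log2 fold change was -0.60 (standard error 0.0880, edgeR adjusted p 0.0428).

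Fzd7, the receptor with the highest level per length (mean 15.8 RPKM), was at 166 and 163 CPM in control and at 89.7 and 115 CPM in Isl1_KO. Both Isl1_KO libraries were below control, with a log2 fold change of -0.69 (standard error 0.128) that met the criteria of the study but not the edgeR threshold (adjusted p 0.0698). Fzd2, at 102 CPM in both control libraries and at 89.5 and 61.1 CPM in Isl1_KO, had a log2 fold change of -0.44 (standard error 0.182, edgeR adjusted p 0.232). Fzd4, Fzd5 and Fzd8 had log2 fold changes of -0.48, -0.45 and -0.56 and Fzd6 of 0.01, none of them past the threshold. In sum, the Fzd transcripts were at 57.5 and 57.1 RPKM in control and at 44.1 and 45.1 RPKM in Isl1_KO. Fzd10 took 7.08% and 7.17% of them in control and 16.5% and 17.2% in Isl1_KO, while Fzd7 took 33.9% and 33.6% against 23.8% and 31.2%.

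**Figure D3:**
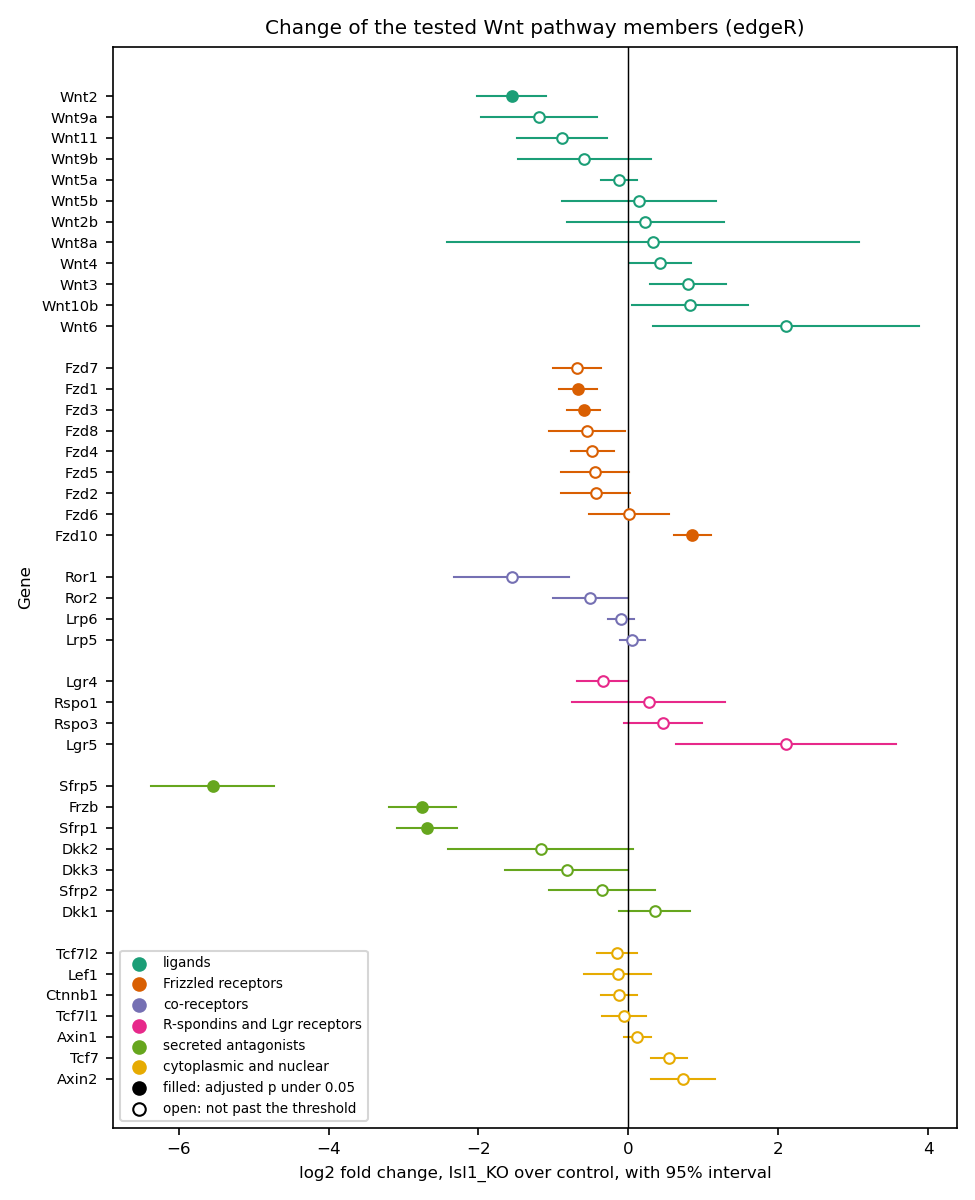
Log2 fold change of Isl1_KO over control with its 95% interval for each of the 43 tested members, grouped and coloured by role, with filled circles for an edgeR adjusted p under 0.05 and a vertical line at no change. Sfrp5, Frzb and Sfrp1 lie farthest to the left at -5.54, -2.75 and -2.68, Fzd10 is the only filled circle to the right, and Lrp5, Lrp6, Ctnnb1 and Wnt5a lie close to 0 with narrow intervals.

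None of the 4 co-receptors passed the threshold. Lrp5 and Lrp6, the co-receptors of the β-catenin branch, had log2 fold changes of 0.05 (95% interval -0.12 to 0.22) and -0.10 (95% interval -0.27 to 0.07). Lrp5 was at 119 and 121 CPM in control and at 121 and 128 CPM in Isl1_KO, and Lrp6 at 190 and 197 against 176 and 185 CPM. Ror1, a receptor of the noncanonical branch, was at 23.8 and 22.0 CPM in control and at 10.2 and 5.29 CPM in Isl1_KO. Its log2 fold change was -1.56 (standard error 0.302), with an edgeR adjusted p of 0.0727 and an unadjusted DESeq2 p of 6.91e-06, and it was -1.17 without the second Isl1_KO library. Ror2, which binds Wnt5a, was at 68.3 and 75.9 CPM against 60.5 and 40.8 CPM (log2 fold change -0.51, SE 0.195, edgeR adjusted p 0.208).

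R-spondins strengthen Wnt signals by binding Lgr receptors, and none of the 4 tested genes of this group passed the threshold. Lgr5, a receptor and well-known target of β-catenin, was at 13.6 and 11.1 CPM in control and at 25.4 and 80.9 CPM in Isl1_KO. Both Isl1_KO libraries were above control, but they differed from each other by 1.65 on the log2 scale of CPM plus 0.5. The log2 fold change was 2.10 (standard error 0.578, edgeR adjusted p 0.128), and it was 1.04 without the second Isl1_KO library. Rspo3, the R-spondin with the highest level (mean 16.3 RPKM), was at 56.6 and 58.0 CPM in control and at 62.7 and 95.4 CPM in Isl1_KO (log2 fold change 0.46, SE 0.204, edgeR adjusted p 0.252). Lgr4 was at 151 and 139 CPM against 128 and 99.6 CPM (log2 fold change -0.34, SE 0.132, edgeR adjusted p 0.208). Rspo1 was at 1.93 and 0.985 CPM in control and at 1.77 and 1.74 CPM in Isl1_KO, and Rspo2 and Rspo4 had too few counts to be tested.

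Inside the cell, 0 of the 7 cytoplasmic and nuclear members passed the threshold of edgeR. An unadjusted edgeR p under 0.05 was found for 2 of them, and for 2955 of all 12715 genes tested. The adjusted p of DESeq2 was under 0.05 for the same 2 members, Axin2 and Tcf7. Ctnnb1, by far the most abundant member per length (mean 204 RPKM), was at 1371 and 1334 CPM in control and at 1336 and 1143 CPM in Isl1_KO. Its log2 fold change was -0.13, with a 95% interval of -0.37 to 0.12, and an exon of it overlaps Ulk4, whose reads could not be told apart. Lef1 was at 118 and 126 CPM against 130 and 90.6 CPM (log2 fold change -0.14, 95% interval -0.59 to 0.30), so its groups overlapped. Tcf7 was at 86.4 and 86.9 CPM in control and at 116 and 136 CPM in Isl1_KO, above control in both libraries (log2 fold change 0.55, SE 0.0947, edgeR adjusted p 0.0619). Axin2, a feedback inhibitor that is widely read as a reporter of β-catenin activity, was at 53.6 and 47.7 CPM against 70.8 and 97.3 CPM. This gave a log2 fold change of 0.73 (standard error 0.170, edgeR adjusted p 0.0965) with all libraries and of 0.48 without the second Isl1_KO library. Axin1, Tcf7l1 and Tcf7l2 had log2 fold changes between -0.15 and 0.12, and an exon of Tcf7l1 overlaps Gm15401.

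**Figure D4:**
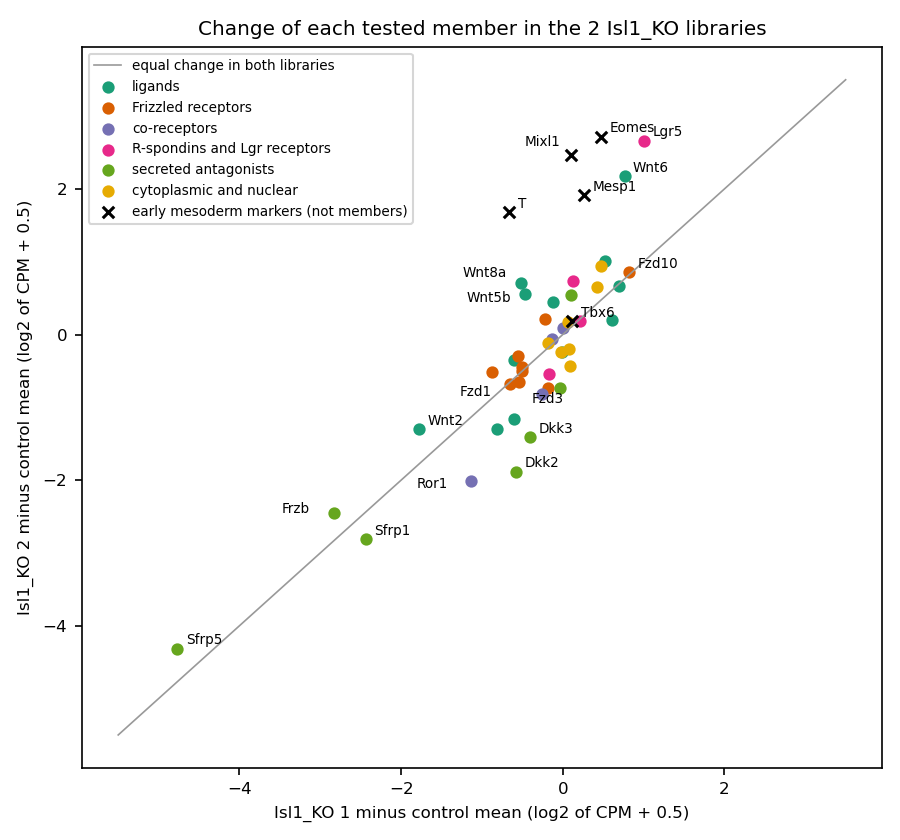
Change of each of the 43 tested members in Isl1_KO replicate 1 (horizontal) and replicate 2 (vertical) against the control mean, both as log2 of CPM plus 0.5, coloured by role, with 5 early mesoderm markers as crosses and a line where both libraries changed equally. Sfrp5, Frzb, Sfrp1, Wnt2, Fzd10, Fzd1 and Fzd3 lie near the line, while Lgr5 (1.01 and 2.66) and Wnt6 (0.77 and 2.18) lie above it toward Eomes, Mixl1, Mesp1 and T, and Dkk2, Dkk3 and Ror1 lie below it.

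The Isl1_KO libraries were also compared with each other, member by member. For the 7 members past the threshold they differed by between 0.018 and 0.485 on the log2 scale of CPM plus 0.5, in either direction. The test itself asks for a small spread, so this is a description. Adding 0.5 also shrinks differences at low levels. With a smaller addition, the median difference over all tested members was 0.41. On that scale Sfrp5, at 0.307 and 0.607 CPM in Isl1_KO, differed by 0.80, above the median. Lgr5, Wnt6, Wnt8a and Wnt5b were higher in replicate 2 than in replicate 1 by 1.65, 1.42, 1.23 and 1.02, although Wnt8a had at most 14 counts. In the opposite direction, Dkk2, Dkk3 and Ror1 differed by -1.30, -1.01 and -0.88. Eomes, a regulator of early mesoderm, was at 13.7 and 12.2 CPM in control, at 18.2 CPM in replicate 1 and at 88.1 CPM in replicate 2. The pluripotency markers were also highest in replicate 2, where they summed to 48.2 CPM. The part of cells with either set of markers in the values of Lgr5, Wnt6, Wnt3 and Axin2 was not tested. Sfrp5, Frzb and Sfrp1 were low in replicate 2 and also in replicate 1, where the early mesoderm markers summed to 32.3 CPM. Whether early mesoderm cells had a part in these decreases was not tested either.

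Other genes of the pathway were read from a second list of 73 genes, of which 66 were tested. Of these 5 passed the edgeR threshold, 2 higher and 3 lower, and the median log2 fold change was -0.05. Over all genes tested 2.45% passed it, 0.511% higher and 1.94% lower. The 14 genes of the destruction complex and the Dishevelled family, among them Apc, Gsk3b and Dvl2, had log2 fold changes between -0.45 and 0.10. Of those 14, edgeR called 0, and DESeq2 placed 0 at the criteria of the study. An unadjusted edgeR p under 0.05 was found for 0 of them, against 2955 of all 12715 genes tested. Wls, which carries Wnt proteins to the cell surface, was at 235 and 238 CPM in control and 232 CPM in both Isl1_KO libraries.

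Of 11 feedback and target genes tested, both Isl1_KO libraries were above control for 7, below it for Dact1 and overlapping with it for Tnfrsf19, Bambi and Dact3. Of all 12715 genes tested, both were above control for 3707 and below it for 3683. The median log2 fold change of the 11 genes was 0.35. Dact1, a regulator that binds Dishevelled, fell from 64.1 and 65.2 CPM to 33.5 and 23.3 CPM (log2 fold change -1.18, SE 0.180, edgeR adjusted p 0.0466). Shisa2, which holds Fzd receptors back inside the cell, fell from 11.1 and 13.2 CPM to 5.15 and 5.03 CPM (log2 fold change -1.26, SE 0.180, edgeR adjusted p 0.0402). The corepressor Tle4, a partner of the Tcf factors, fell from 66.0 and 63.4 CPM to 41.5 and 44.0 CPM (log2 fold change -0.60, SE 0.0843, edgeR adjusted p 0.0397). Apcdd1, a membrane inhibitor and target of the pathway, rose from 86.4 and 88.3 CPM to 146 and 147 CPM (log2 fold change 0.75, SE 0.0618, edgeR adjusted p 0.0103). Daam1, a formin that links Dishevelled to the actin skeleton, rose from 181 and 179 CPM to 275 and 251 CPM (log2 fold change 0.55, SE 0.0731, edgeR adjusted p 0.0359). The 56 genes within 5 Mb of Daam1 on chromosome 12 had a median log2 fold change of 0.41, against 0.55 for Daam1 itself. The 47 around Dact1 had a median of 0.45, against -1.18 for Dact1. Around the 7 members past the threshold the median lay between -0.075 and 0.045. Whether the neighbourhood had a part in the change of any of these genes was not tested. Of the feedback and target genes Nkd1, Sp5, Apcdd1 and Myc were higher and Dact1 lower at the criteria of the study. Nkd2, Dact2, Tnfrsf19, Ccnd1, Bambi and Dact3 of the same list did not meet them, with log2 fold changes between -0.31 and 0.36. Neither did Rnf43 (log2 fold change -0.61) and Znrf3 (0.21), listed under receptor turnover. The β-catenin targets Nkd1, Sp5, Notum and Myc, named after their values were seen, met the criteria of the study with log2 fold changes of 0.79, 1.29, 1.79 and 0.84, but edgeR's adjusted p was between 0.0753 and 0.167. Notum, which was listed under ligand processing, was at 1.14 and 1.53 CPM in control and at 2.61 and 6.77 CPM in Isl1_KO. For these 4 genes both Isl1_KO libraries were above control and replicate 2, the library with the high early mesoderm markers, was the higher, as it was for Axin2 and Lgr5; the part of such cells was not tested.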

How the data were processed

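Poly(A) RNA of sorted reporter-positive cells was made into stranded libraries and sequenced. The authors mapped reads to mm9 with STAR (introns of 20 to 500000 bases) and used HOMER to count reads on the exons of RefSeq transcripts without regard to strand, so that overlapping genes share reads. The versions used by the authors are not given in the sources used here. The counts were deposited as whole reads for every transcript. For the deposited RPKM values the authors divided by transcript length in edgeR. The authors' deposited DESeq2 comparison (log2 fold changes and their errors, p-value columns, the Wald score and a mean signal after size factors) was not used. The number of sample columns left unmatched was 0.

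One entry per symbol was used, that with the most counts over all libraries (56.98% of all counts), and the 56 members had 97 entries. The floor of 3 counts was 0.340, 0.328, 0.228 and 0.263 CPM in control 1, control 2, Isl1_KO 1 and Isl1_KO 2, and it covers counting error only. The main test was the two-sided quasi-likelihood F test of edgeR 4.0.16 in R 4.3.3, with TMM factors, filterByExpr and Benjamini-Hochberg adjustment over 12715 genes. DESeq2 1.42.0 was applied to the 16855 genes with a count. CPM used effective library sizes and serves comparisons between groups; RPKM serves comparisons between genes. The common biological variation was 11.1%. The libraries come from different clones, and p-values rest on a spread pooled over the control and the Isl1_KO pair. The 2 pairs did not always spread alike. Smooth muscle markers summed to 2435 and 2438 CPM in control and to 2082 and 679 CPM in Isl1_KO. Cardiomyocyte markers were close in both pairs, at 1509 and 1595 CPM and at 35.6 and 33.3 CPM. Where the Isl1_KO pair spreads more, the pooled value understates the spread between its clones. Gene positions were taken from GENCODE vM1 (NCBIM37, from which mm9 was made).

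The members and lists were chosen with earlier results of these data known. Values per library are given for members past the edgeR threshold or at the criteria of the study, for the 3 members of each role with the highest RPKM, for Wnt2, Wnt5a, Wnt11, Ctnnb1, Axin2, Lef1 and Dkk1, and for pathway genes outside the members that passed. Sp5, Notum, Nkd1, Myc and Wls were added after their values were seen, as were Rspo1, Eomes and the examples of ranges. Alternatives were RLE factors, DESeq2, other count filters, other entries per gene, a test against 1.5-fold, a replicate block and leaving out each library.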

Additional observations from a re-analysis of the deposited data

How the results depend on the processing

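The 7 Wnt members past the edgeR threshold became 12 with DESeq2's adjusted p and 3 (Sfrp5, Sfrp1 and Frzb) when tested against 1.5-fold. Leaving out 1 library gave between 1 and 31 members, between 0 and 37 of the other pathway genes (5 with all libraries), between 28 and 6355 of all genes (312 with all libraries), and between 9 and 21 members at the criteria of the study (17 with all libraries). For the edgeR counts the low values came without a control library and the high ones without an Isl1_KO library, where the spread was taken from the control pair alone. At the criteria of the study 21 members, 16 of them among the 17, were found without Isl1_KO replicate 1, and 10 without Isl1_KO replicate 2. With DESeq2's adjusted p, 8 other pathway genes and 604 of all genes passed, and 11 members met the criteria of the study. Against 1.5-fold, 0 other pathway genes and 92 of all genes passed. Without a count filter 492 of all genes passed. With at least 10 counts in every library Sfrp5 could not be tested and 6 members passed. Isl1 stayed past the threshold throughout, between -4.75 and -4.08 with 1 library left out.

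The numbers 1 and 2 pair nothing in the labels, and the deviations of same-numbered libraries had a correlation of 0.00732 across 12026 genes, which are not independent replicates. With the number as a replicate block 9 members passed, 7 other pathway genes and 428 of all genes, 16 members met the criteria of the study, and Isl1 was at -4.39; Fzd1 was lost, and Fzd7, Ror1 and Tcf7 were gained. For single named genes, 328 values under an alternative kept their side of the threshold, 45 passed only under the alternative and 33 only in the main test, and 0 changed direction past the threshold. With 2 libraries a group and members under 10 counts, small changes and low ligands could not be resolved.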

Other observations

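Of the 13 members with several transcript entries 12 could be tested entry by entry. Entries of 1 gene can share reads, and they gave log2 fold changes that differed by at most 0.081, the widest being the 25 entries of Tcf7l2 (-0.18 to -0.10). For Ror1 the entries were at -1.63 and -1.55, although the shorter had 15, 15, 7 and 6 counts against 210, 201, 132 and 61 for the longer, and the 4 entries of Wnt11 lay between -0.88 and -0.85.

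The blood marker Runx1, known from hematopoietic progenitors, was at 70.4 and 71.9 CPM in control and at 102 and 110 CPM in Isl1_KO (log2 fold change 0.57, edgeR adjusted p 0.0335), and it was chosen after its values were seen. Of the other 5 blood markers none passed the edgeR threshold. Gata1 (log2 fold change 0.85, edgeR adjusted p 0.0698) and Tal1 (0.93, edgeR adjusted p 0.0972) were above control in both Isl1_KO libraries and met the criteria of the study. The globins Hbb-bh1 (-1.51) and Hba-x (-2.13) were below control in both, and Klf1 (0.12) overlapped with it.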
